A study of Mus musculus with 64 samples.

Results

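The mitochondrially encoded transcripts of mouse pancreatic tumor cells are described here. They were taken as the genes whose symbol starts with mt- in the authors' count table, 37 of its 39017 genes. The 37 comprised 13 mRNA genes, 2 rRNA genes and 22 tRNA genes, and all 37 were also listed among the 49585 genes of the authors' RPKM table. The RPKM table divides reads by gene length and library total.

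The tumor cells were 8 lines with the strain background C57BL/6 mixed. Of these, 7 were clones that the study derived from the tumor of 1 KPC mouse, so that each is a clonal line and all 7 share 1 animal. The study placed clones E, H and V in metabolic group 1 and clones K, M, N and T in group 2, and the line KPC1, whose genotype is not given in the sources used here, to neither. A line was sequenced in mono-culture (4 libraries) and, after fibroblasts had been grown with it for 48 h and the fluorescent tumor cells sorted out, in coculture (4 libraries), which makes 64 libraries over both. Their totals lay between 11178721 and 21333683 counts (median 15648010), and 3 counts in the shallowest library stood for 0.268 CPM, the count scaled to the library total. Within a line and culture, nothing in the labels says that the 4 libraries came from separate cultures, and p-values within a line measure the spread between these libraries, which may be technical.

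Mitochondrial DNA is a small circle that codes for a few core subunits of the respiratory chain and for the rRNAs and tRNAs that translate them. Both of its strands are transcribed into long precursors, which are cut largely at the tRNAs, so that the mRNAs of a strand begin as 1 RNA and reach different levels by processing and decay. Most of the mRNAs carry poly(A) tails and are therefore taken up by poly(A) libraries, the kind made here, whereas mature tRNAs are taken up poorly. Nuclear chromosomes hold old copies of mitochondrial DNA, and reads from a recent copy cannot be told from reads of the mitochondrial gene.

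The sequences of 2 genes and their nuclear copies show how close these copies can be. Positions and sequences are those of the GENCODE M21 transcripts on GRCm38, and the copies were found by matching transcripts over at least 100 aligned bases. The first pair is the start of mt-Atp6, at chrM:7927-8046 on the plus strand, and of the pseudogene Gm10925, at chr1:24614532-24614651 on the minus strand, which did not differ over 120 bases. The second pair is a stretch of mt-Nd2, at chrM:4442-4561 on the plus strand, and of the pseudogene Gm13339, at chr2:22590414-22590533 on the minus strand, where the 3 bases that differ are in capitals. All are written 5′ to 3′ along the transcript.
mt-Atp6: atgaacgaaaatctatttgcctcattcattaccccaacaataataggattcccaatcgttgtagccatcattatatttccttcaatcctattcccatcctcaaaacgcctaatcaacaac
Gm10925: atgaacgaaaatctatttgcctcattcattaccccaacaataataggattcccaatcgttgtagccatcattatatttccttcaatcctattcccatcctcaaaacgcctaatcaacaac
mt-Nd2: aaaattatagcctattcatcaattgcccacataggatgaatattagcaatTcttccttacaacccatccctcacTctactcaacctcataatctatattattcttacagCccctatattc
Gm13339: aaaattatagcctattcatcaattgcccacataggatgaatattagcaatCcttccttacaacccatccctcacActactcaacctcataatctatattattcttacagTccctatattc

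The 2 tRNA genes with the most counts are shown as well, because the authors' tables differed for mt-Tp and not for mt-Tl1, whose RPKM was 0.961 times its CPM per kilobase. The gene mt-Tp, the tRNA for proline, is read from the light strand at chrM:15356-15422 (minus strand), and mt-Tl1, a tRNA for leucine, is read from the heavy strand at chrM:2676-2750 (plus strand).
mt-Tp: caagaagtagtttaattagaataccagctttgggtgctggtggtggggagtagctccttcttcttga
mt-Tl1: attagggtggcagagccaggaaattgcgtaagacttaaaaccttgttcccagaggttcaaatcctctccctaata

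Of the counts on the 37 genes, 96.5% fell on the 13 mRNAs, 3.31% on the 2 rRNAs and 0.207% on the 22 tRNAs. The catalytic subunit of complex IV, mt-Co1, took 42.8% of them, followed by the complex III subunit mt-Cytb with 16.7% and the complex I subunits mt-Nd1 with 14.4%, mt-Nd2 with 8.59%, mt-Nd5 with 7.08% and mt-Nd4 with 5.18%. Per length, mt-Co1 led with a mean of 9278 CPM per kilobase over the 64 libraries, and mt-Nd6, the only mRNA read from the light strand, had 1106. Of the 22 tRNAs, 17 had a mean under 1 CPM, and mt-Tp (39.5 CPM), mt-Tl1 (20.3 CPM) and mt-Te (3.09 CPM) had the highest means.

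A block of 11 genes was almost empty in the count table. It comprised 6 mRNAs, namely the complex IV subunits mt-Co2 and mt-Co3, both mitochondrial subunits of the ATP synthase, mt-Atp6 and mt-Atp8, and the complex I subunits mt-Nd3 and mt-Nd4l, together with 5 tRNAs. The 6 mRNAs had between 0.723 and 4.39 CPM per kilobase, whereas the other heavy-strand mRNAs had between 1261 and 9278. The 11 genes together held 0.0255% of the counts on mitochondrially encoded genes, and of the 5 tRNAs, 4 had no count in any of the 64 libraries.

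These 11 genes were the ones that lie wholly within chrM:6390-11042, the stretch of 4653 bases between the outermost bases matched by 7 near-exact pseudogene copies, called the copied stretch here. The pseudogenes lie on the minus strand within chr1:24611535-24616188, a span of 4654 bases, and their identity to the matching mitochondrial transcript was between 99.71% and 100%. They match mt-Co2, mt-Atp6, mt-Co3, mt-Nd3 and mt-Nd4l. No pseudogene transcript matched mt-Atp8, the 5 tRNAs are shorter than the alignment minimum, and the bases between the pseudogenes were not compared. mt-Co1 and mt-Nd4 overlap the stretch in part, the latter over its first 876 bases, and kept counts. Of 17 nuclear copies with at least 90% identity, 9 were listed in the count table and 16 in the RPKM table, and of the 7 near-exact ones, 1 and 7 were. By mean CPM the leading copies in the count table were Gm13340 (10.5 CPM), Gm13341 (1.90 CPM) and the near-exact Gm10222 (1.40 CPM). How the authors treated reads that match more than 1 place is not given in the sources used here, and its part in these low values was not tested. The 6 mRNAs are therefore uncertain in what follows, and their counts are not a measure of their RNA.

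The RPKM table gave other values for the same block. There the 6 mRNAs had a mean RPKM between 18.02 and 156, which was between 21.6 and 47.9 times their CPM per kilobase, and the near-exact copies had values as high, Gm10925 for example a mean RPKM of 184. For the other heavy-strand mRNAs and both rRNAs the ratio of RPKM to CPM per kilobase lay between 0.952 and 1.02. The light-strand genes differed the other way, with ratios between 0.000876 and 0.407: mt-Nd6 had a mean RPKM of 42.9 and mt-Tp one of 2.72, against 590 CPM per kilobase for mt-Tp. The cause of these differences was not tested, and the strand setting of the counting is not given in the sources used here. mt-Nd6 shares 14 bases with mt-Nd5 on the opposite strand.

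**Figure D1:**
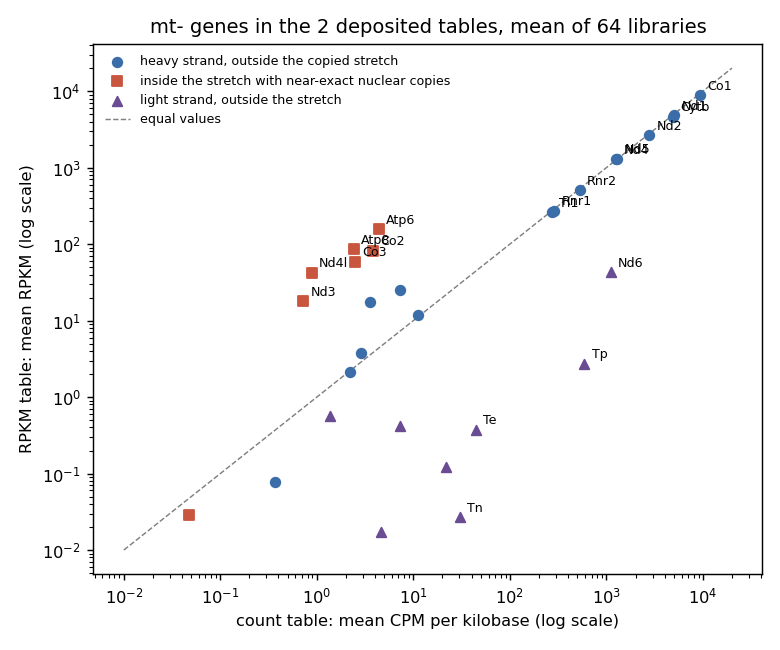
Mean RPKM of each mt- gene over 64 libraries against its mean CPM per kilobase in the count table, both on log scales, with genes at 0 in either table left out and a dashed line of equal values. Heavy-strand mRNAs not wholly within the copied stretch lie on the line. The 6 mRNAs wholly within that stretch lie above the line, with RPKM from 18.02 to 156, and the light-strand genes lie below the line.

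The share of all counts on mitochondrially encoded genes was lower after coculture in 7 of 8 lines, and in 6 of 8 without mono-culture library 4 of KPC1. The line means averaged 3.83% in mono-culture and 2.87% in coculture, a difference of -0.959 percentage points (two-sided exact permutation test swapping cultures within lines, p = 0.0234, n = 8 lines, where the smallest possible p is 0.0078; p = 0.0313 without that library). In CPM such a difference is relative to all other RNA of the library, and in bulk samples fewer cells of a type and less RNA per cell cannot be told apart.

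Among the group 1 clones, clone E had shares of 3.90%, 6.00%, 4.11% and 4.09% in mono-culture and 2.13%, 3.44%, 2.54% and 2.39% in coculture. Clone H had 3.51%, 3.57%, 3.12% and 2.56% against 2.32%, 1.96%, 2.08% and 1.95%. Clone V had 3.64%, 3.34%, 4.15% and 4.43% against 3.02%, 2.35%, 2.73% and 2.28%. In these 3 clones no coculture library reached any mono-culture library of the same clone.

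Among the group 2 clones, clone M had the highest and tightest mono-culture shares, 5.25%, 5.56%, 5.43% and 5.44%, against 3.96%, 3.72%, 3.37% and 4.02% in coculture. Clone T had 4.22%, 3.94%, 3.35% and 3.79% against 2.09%, 3.18%, 2.53% and 2.70%. Clone N had 3.56%, 4.07%, 2.91% and 3.35% against 1.84%, 2.43%, 2.59% and 3.12%. The cultures did not overlap in clones M and T, and they overlapped by 1 coculture library in clone N.

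Clone K and KPC1 stood apart. Clone K had 1.47%, 4.46%, 3.91% and 3.55% in mono-culture and 4.14%, 4.55%, 3.49% and 3.88% in coculture. KPC1 had 2.89%, 2.32%, 2.82% and 3.85% in mono-culture and 2.63%, 3.08%, 2.46% and 2.94% in coculture. In both lines the cultures overlapped. The mean of clone K was higher in coculture by 0.670 points, but by 0.0436 points without its mono-culture library 1, the lowest of all 64. The mean of KPC1 was lower in coculture, but without its mono-culture library 4 the means were 2.68% in mono-culture and 2.78% in coculture, which is the other direction.

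Within single lines the mean difference was -1.90 points in clone E, -1.65 in M, -1.30 in V, -1.20 in T and -1.12 in H (exact permutation test of 4 against 4 libraries, p = 0.0286, the smallest that 70 splits allow, adjusted p = 0.0457 over 8 lines by Benjamini-Hochberg). In clone N it was -0.980 (exact permutation test, adjusted p = 0.0762). Clone K (adjusted p = 0.490) and KPC1 (-0.194 points, adjusted p = 0.657) did not pass a threshold of 0.1, the threshold of the study, in the same exact permutation test. With 3 libraries a culture no line can pass, since the smallest p is then 0.1.

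**Figure D2:**
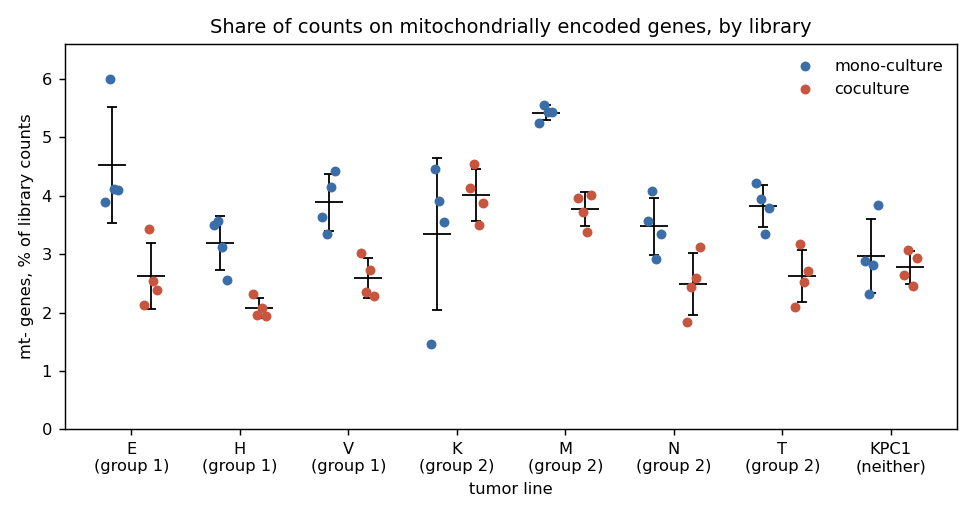
Share of library counts on the 37 mt- genes, in percent, for each of the 64 libraries by line and culture; horizontal bars are means and vertical bars 1 SD over 4 libraries. Coculture libraries lie below all mono-culture libraries of the same line in E, H, V, M and T, and clone K has 1 mono-culture library at 1.47%.

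In mono-culture the line means ran in the order M (5.42% ± 0.13, SD, n = 4), E (4.53% ± 0.99), V (3.89% ± 0.49), T (3.82% ± 0.36), N (3.47% ± 0.48), K (3.35% ± 1.31), H (3.19% ± 0.46) and KPC1 (2.97% ± 0.64). Neighbors in this order, which are the closest pairs by construction, did not differ beyond the spread between libraries (exact permutation tests, adjusted p between 0.867 and 0.914 over 7 pairs). Lines further apart did not always overlap: the lowest library of clone M, at 5.25%, lay above every mono-culture library of the 6 lines below clone E, the highest of which was at 4.46%. The comparison of the metabolic groups showed means of 3.87% over the 3 group 1 clones and 4.02% over the 4 group 2 clones, a difference of -0.147 points (exact permutation test over 35 splits, p = 0.8286, smallest possible 0.0286). The coculture difference averaged -1.44 points in group 1 and -0.790 in group 2 (exact permutation test, p = 0.371, n = 7 clones), so a difference in response was not detected with 3 against 4 clones.

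Markers of fibroblasts moved with the cultures. The 10 fibroblast markers summed to 19.1 to 147 CPM (median 75.3) in mono-culture libraries, and in coculture libraries to 216 to 1927 CPM (median 843), and it was higher in each line, by a ratio of means between 7.69 in clone V and 41.7 in clone T. Of the 10, Lum and Thy1 had no count in any of the 32 mono-culture libraries. Dcn, Postn, Fap and Col1a2 had none in 26, 29, 26 and 8 of them. Pdgfra, Col1a1, Col3a1 and Col6a3 had counts in every mono-culture library, with medians of 9.78, 9.82, 41.6 and 1.09 CPM. In coculture Lum stayed low, with a median of 0.0583 CPM and no count in 12 libraries. The 6 epithelial markers summed to 1868 to 4167 CPM in mono-culture libraries, and in coculture libraries to 1440 to 3620 CPM. Their members went different ways. Median CPM in mono-culture and coculture was 983 and 773 for Krt8 and 543 and 305 for Krt19. It was 1259 and 1314 for Krt18 and 72.0 and 82.9 for Cdh1. Epcam (0.0623 and 0) and Cldn7 (0.138 and 0.110) were near the floor. By line, the ratio of coculture to mono-culture means for the epithelial markers was 0.656 in clone T, 0.675 in V, 0.684 in H, 0.698 in KPC1, 0.838 in N and 0.957 in E, against 1.11 in K and 1.36 in M. Leukocyte markers stayed at or below 0.292 CPM, the 3 endothelial markers had medians of 1.05 CPM in mono-culture and 0.909 CPM in coculture, and the 3 acinar markers had 1.23 CPM (mono-culture) and 1.20 CPM (coculture). The fibroblast ratio was 41.7 in clone T, 16.7 in K, 14.4 in E and 13.4 in M. It was 11.6 in KPC1, 10.1 in H, 9.04 in N and 7.69 in V. These ratios rest on mean mono-culture sums between 21.6 CPM in T and 126 CPM in N. The part of fibroblast RNA, or of the shift in the epithelial markers' sum, in the results on coculture was not tested.

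Gene by gene, the coculture response over the 8 lines was tested with edgeR's quasi-likelihood test on counts summed per line and culture, with Benjamini-Hochberg adjustment over the 14478 genes tested. Of the 37 genes, 26 passed the filter on low counts, 11 of which were lower in coculture and 1 higher at an adjusted p under 0.1. Over all genes tested, 27.4% were lower and 27.2% higher. The median log2 difference was -0.24 over the 26 genes and 0.00 over all genes.

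The complex I mRNAs that carried counts were lower. The 2 largest differences were in mt-Nd5 and mt-Nd6, subunits of the membrane arm. mt-Nd5 had between 1021 and 5426 CPM (median 2940) in the 32 mono-culture libraries and between 946 and 3887 CPM (median 1534) in the 32 coculture libraries, with a log2 difference of -0.74 ± 0.14 (SE, edgeR adjusted p = 0.00364), a level that fell by 40.3%. mt-Nd6 had between 286 and 1325 CPM (median 717) against between 169 and 982 CPM (median 379), with a log2 difference of -0.75 ± 0.17 (edgeR adjusted p = 0.00774), but its RPKM did not pass (log2 difference 0.03, limma adjusted p = 0.885). The libraries of the cultures overlapped for both genes when all lines were pooled.

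In clone V, where these differences were largest, mt-Nd5 was at 3402, 3345, 4027 and 4777 CPM in mono-culture and at 1797, 1591, 1586 and 1403 CPM in coculture. mt-Nd6 was at 885, 827, 987 and 1208 CPM in mono-culture and at 350, 387, 373 and 256.5 CPM in coculture. In CPM no coculture library of clone V reached a mono-culture library for either gene. In RPKM mt-Nd6 was at 48.0, 19.4, 40.3 and 32.6 in mono-culture and at 31.03, 27.5, 37.5 and 27.1 in coculture, and the cultures overlapped.

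mt-Nd4, another membrane arm subunit, ranged from 913 to 3488 CPM (median 2071) in mono-culture and from 819 to 2366 CPM (median 1164) in coculture, with a log2 difference of -0.68 ± 0.11 (edgeR adjusted p = 0.00239). mt-Nd2 had a median of 3292 CPM against 2153 CPM and a log2 difference of -0.51 ± 0.14 (edgeR adjusted p = 0.0175). mt-Nd1, which lies at the quinone site, had a median of 5452 CPM against 3851 CPM and a log2 difference of -0.45 ± 0.12 (edgeR adjusted p = 0.0136). All 3 kept their call in each of the alternatives tried. Of the complex I mRNAs within the copied stretch, mt-Nd4l had a log2 difference of -0.49 ± 0.19 (edgeR adjusted p = 0.0542, 0.195 with DESeq2) and mt-Nd3 one of -0.20 ± 0.28 (edgeR adjusted p = 0.573).

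Complex III has a single mitochondrially encoded subunit, cytochrome b. Its mRNA mt-Cytb ranged from 2052 to 10436 CPM (median 6504) in mono-culture and from 2580 to 7312 CPM (median 3946) in coculture, with a log2 difference of -0.59 ± 0.11 (edgeR adjusted p = 0.00360). It was called lower in 7 of 8 lines, KPC1 included, more lines than any other mitochondrially encoded gene. In KPC1 its log2 difference was -0.52 with all libraries and -0.21 in the libraries of sample sheet A alone, where mono-culture is 1 library. In clone M these values were -0.45 and -0.39 (the sheets are described below).

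In complex IV, mt-Co1 differed by less. It ranged from 5426 to 23306 CPM (median 15625) in mono-culture and from 7802 to 17731 CPM (median 13583) in coculture, with a log2 difference of -0.26 ± 0.10 (edgeR adjusted p = 0.0575), a call that was lost in sheet A libraries alone (edgeR adjusted p = 0.185) and without clone E, H, M or T. mt-Co2 (-0.23 ± 0.15, edgeR adjusted p = 0.225) and mt-Co3 (-0.11 ± 0.23, edgeR adjusted p = 0.713) did not pass. The ATP synthase mRNAs mt-Atp6 (-0.27 ± 0.15, edgeR adjusted p = 0.172; RPKM -0.38, limma adjusted p = 0.0649) and mt-Atp8 (-0.21 ± 0.34, edgeR adjusted p = 0.641) had wide errors at their low counts.

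The rRNAs did not pass the test. The small-subunit rRNA mt-Rnr1 ranged from 109 to 2073 CPM (median 207) in mono-culture and from 147 to 574 CPM (median 260) in coculture, with a log2 difference of 0.18 ± 0.25 (edgeR adjusted p = 0.581). The highest value, 2073 CPM, was mono-culture library 3 of clone M, whose 3 other mono-culture libraries had between 193 and 224 CPM. Without that library mt-Rnr1 was higher in coculture, by 0.36 ± 0.10 on the log2 scale (edgeR adjusted p = 0.0177). The large-subunit rRNA mt-Rnr2 had a median of 758 CPM against 705 CPM and a log2 difference of -0.20 ± 0.14 (edgeR adjusted p = 0.270).

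Of the 22 tRNAs, 11 were tested. mt-Tl1 had a median of 20.8 CPM in mono-culture and 15.3 CPM in coculture (log2 difference -0.41 ± 0.11, edgeR adjusted p = 0.0128). mt-Tp had 41.7 CPM against 27.2 CPM (-0.36 ± 0.12, edgeR adjusted p = 0.0349), whereas its RPKM gave 0.42 (limma adjusted p = 0.153). mt-Te, the tRNA for glutamate, had 3.57 CPM against 1.84 CPM (-0.58 ± 0.25, edgeR adjusted p = 0.0805), a call that was lost without clone E, V, N or T. From RPKM mt-Te did not pass (-0.17, limma adjusted p = 0.139). The 1 gene called higher was mt-Ty, the tRNA for tyrosine (0.55 ± 0.19, edgeR adjusted p = 0.0349), which was higher in 8 of 8 lines but had between 0 and 17 counts a library and was not called with DESeq2. The RPKM of mt-Ty was 0 in all 32 mono-culture libraries. Both mt-Te and mt-Ty are light-strand genes.

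**Figure D3:**
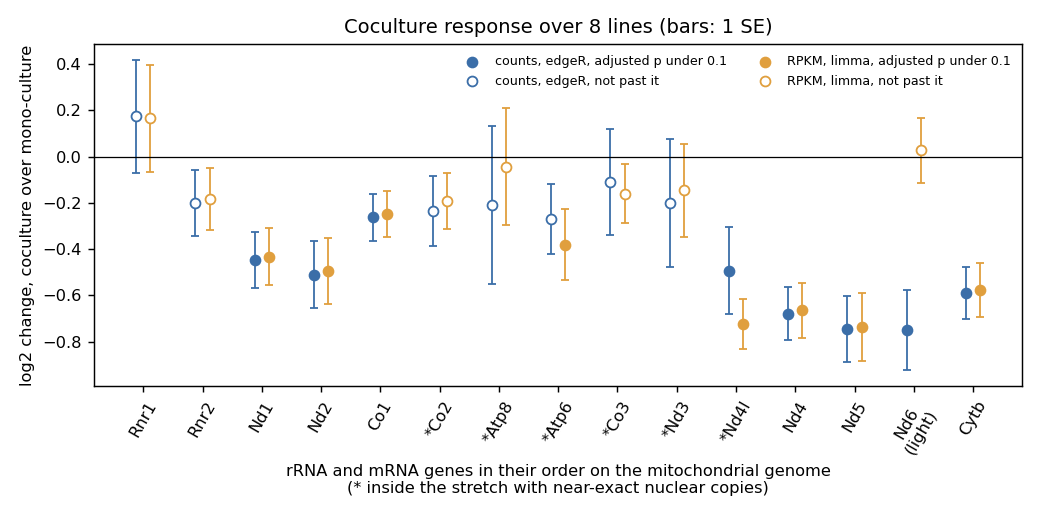
Log2 difference of coculture over mono-culture for the 2 rRNA and 13 mRNA genes in their order on the mitochondrial genome, over 8 lines, from counts (edgeR) and from RPKM (limma); bars are 1 SE and filled points have an adjusted p under 0.1. Among heavy-strand genes not wholly within the copied stretch, mt-Nd4, mt-Nd5 and mt-Cytb lie lowest in both tables, mt-Co1 lies nearer to 0, and mt-Nd6 (-0.75 and 0.03) differs between the tables.

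Because a share of the mRNA counts does not depend on library scaling, the make-up of these counts was compared as well. mt-Co1 rose from 42.4% to 47.7% of the counts on the 13 mRNAs, and was higher in 8 of 8 lines. Over the same counts mt-Nd4 fell from 5.70% to 4.80%, mt-Nd5 from 7.88% to 6.31% and mt-Nd6 from 1.91% to 1.51%, each in 8 of 8 lines (exact permutation tests over lines, adjusted p = 0.0254 for each of the 4 over 13 mRNAs). In clone K the directions of mt-Co1 and mt-Nd6 rest on mono-culture library 1. There mt-Co1 took 38.1%, against 43.98% to 44.96% in the other mono-culture libraries of clone K. Without that library mt-Co1 was lower and mt-Nd6 higher in coculture of clone K. mt-Cytb went from 17.99% to 16.2%, lower in 7 of 8 lines (exact permutation test, adjusted p = 0.131), and mt-Nd1 and mt-Nd2 did not pass. mt-Co3, within the copied stretch, differed by 0.00122 points (exact permutation test, adjusted p = 0.0813), which was lost without any 1 of 6 lines.

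The log2 ratio of mt-Nd6 to the 12 heavy-strand mRNAs went from -5.72 to -6.06, and was lower in 8 of 8 lines by between 0.0358 and 0.927 (mean -0.343; exact permutation test, p = 0.0078, adjusted p = 0.0234 over 3 measures). The smallest difference was in clone K, whose mono-culture libraries were at -5.22, -5.86, -5.72 and -6.01. Without the first of these, the mean of clone K was higher in coculture. Over lines, the same ratio from the RPKM table went against that from counts, from -9.40 to -9.02, higher in 7 of 8 lines (0.374, exact permutation test, p = 0.0391). Since the 2 tables differ in sign, no direction can be given for the light strand relative to the heavy strand. From counts the ratio also differed between the sample sheets A and B, described below. In coculture of clone K it was -5.43 and -5.45 on sheet A, and -6.05 and -6.01 on sheet B. In that of clone V it was -5.83 and -6.11 against -6.36 and -6.39. Coculture of clone M went the other way, with -5.82, -5.78 and -5.82 on sheet A and -5.67 on sheet B. The part of the sheet was not tested.

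The 2 rRNAs made up 2.99% of mitochondrially encoded counts in mono-culture and 3.71% in coculture, higher in 7 of 8 lines (difference 0.725 points, exact permutation test, adjusted p = 0.117). Clone M was the exception, with 11.3% in its mono-culture library 3 and between 2.08% and 2.44% in the other 3. Without that library the difference was 1.01 points, in 8 of 8 lines (exact permutation test, adjusted p = 0.0117). The tRNAs made up 0.199% and 0.214% (exact permutation test, adjusted p = 0.117).

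Within single lines 23 of the 37 genes were tested by edgeR on single libraries. In clones E and M 10 were called lower and in clones H, V, N and T 9 were, and none of the 23 was called higher in these 6 clones. Over all genes tested, 29.2% were lower in E, 17.3% in M, 22.6% in H, 31.5% in V, 17.4% in N and 30.7% in T, and 32.1%, 21.6%, 21.4%, 29.99%, 20.03% and 31.5% were higher in the same order. mt-Nd1, mt-Nd2, mt-Nd4, mt-Nd5, mt-Nd6 and mt-Tp were called lower in each of these 6 clones, whereas mt-Co1 was called lower in 3, E, H and M. The light-strand genes mt-Nd6 and mt-Tp had no such direction in RPKM over lines (above), and in clone E the RPKM of mt-Nd6 was 45.3, 50.02, 38.7 and 50.2 in mono-culture and 26.7, 59.6, 26.5 and 103.9 in coculture. In counts the size varied: mt-Nd6 differed by -1.48 ± 0.24 on the log2 scale in clone V (edgeR adjusted p = 1.18e-06), by -1.20 ± 0.24 in E (adjusted p = 3.72e-05) and by -0.64 ± 0.24 in M (adjusted p = 0.0350). In clone M the rRNAs were among the genes called lower, mt-Rnr1 by -1.84 and mt-Rnr2 by -1.20, which rests on the mono-culture library named above.

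The sample numbers in the labels fall in 2 series, called sample sheets A and B here. The labels do not say what these series stand for. The cultures fell unevenly over them in clones K, V and N and in KPC1. In clone K all 4 mono-culture libraries were on sheet B and coculture libraries 2 and 4 on sheet A, and in KPC1 mono-culture library 3 and coculture libraries 1, 2 and 4 were on sheet A. Clone V had all mono-culture libraries and 2 of 4 coculture libraries on sheet A, and clone N all and 3 of 4. In the 11 groups of line and culture with both sheets, mt-Tn, mt-Tt and mt-Co3 had a higher mean on sheet A in 11 and mt-Tc in 10. Those of mt-Nd1, mt-Nd2 and mt-Nd6 were higher on sheet A in 9, of mt-Nd4 and mt-Nd5 in 8, mt-Co1 in 7 and mt-Cytb in 4. In sheet A libraries alone the log2 difference over lines was -0.54 for mt-Nd1, -0.56 for mt-Nd2 and -0.75 for mt-Nd4. It was -0.85 for mt-Nd5, -0.84 for mt-Nd6 and -0.67 for mt-Cytb. In clone K, coculture libraries 1 and 3 shared sheet B with all mono-culture libraries. The part of the sheet in the calls was not tested.

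Clone K had no gene called lower (8.02% of all genes were) and 4 tRNAs called higher, mt-Tn, mt-Tc, mt-Tt and mt-Tp (12.5% of all genes were). Its mt-Tn was at 1.06, 1.60, 0.752 and 1.08 CPM in mono-culture and at 1.15, 5.08, 1.26 and 3.11 CPM in coculture, where the 2 high values are those of sheet A. Counts of mt-Tc were 9, 9, 5 and 4 in mono-culture and 6, 43, 3 and 35 in coculture. Those of mt-Tt were 2, 2, 0 and 1 against 5, 21, 0 and 26, and in both genes the 2 high values are again those of sheet A. The light-strand genes mt-Tn and mt-Tc had a mean RPKM of only 0.0267 and 0.121 over all libraries. KPC1 had mt-Cytb called lower (-0.52 ± 0.19, edgeR adjusted p = 0.0359; 19.02% of all genes) and mt-Rnr1, mt-Co3, mt-Tn and mt-Tc called higher (20.1% of all genes). Its mt-Tn had 34 counts in the mono-culture library of sheet A and 16, 23 and 14 in those of sheet B. In coculture it had 53, 68 and 80 on sheet A and 26 on sheet B. In sheet A libraries alone, where mono-culture is 1 library, the log2 difference was 1.37 for mt-Tn and 1.29 for mt-Tc. It was 1.19 for mt-Rnr1, 0.88 for mt-Co3 and -0.21 for mt-Cytb. The part of the sheet in the calls of KPC1 was not tested. In clone K mt-Nd5 was at 1530, 3485, 3386 and 2884 CPM in mono-culture and at 2880, 3887, 2480 and 3236 CPM in coculture, a log2 difference of 0.09 ± 0.21. Mono-culture library 1 of clone K was the low one, and without it 5 in place of 8 calls were higher over the 8 lines.

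The test of the difference in response among the 8 lines, added after the results within lines were seen, called 15 of 23 genes, against 71.3% of all genes tested, led by mt-Nd6 (edgeR adjusted p = 0.000207) and mt-Tp (adjusted p = 0.000283). Without clone K the test called 9 genes of 22, against 66.1% of all genes, and in both settings the share of the members was the smaller one. In mono-culture 19 of 21 genes differed among the 8 lines, against 96.9% of all genes, and mt-Co1 (edgeR adjusted p = 0.113) and mt-Tm (adjusted p = 0.242) did not. mt-Nd6 was at a mean of 363 CPM ± 80.4 in KPC1 and 1024 CPM ± 226 in clone E (SD, n = 4). Of these libraries, all 4 of clone E but only 1 of KPC1 were on sheet A, and the part of the sheet was not tested. mt-Nd6 and mt-Tp are light-strand genes, for which the count and RPKM tables differed (above).

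**Figure D4:**
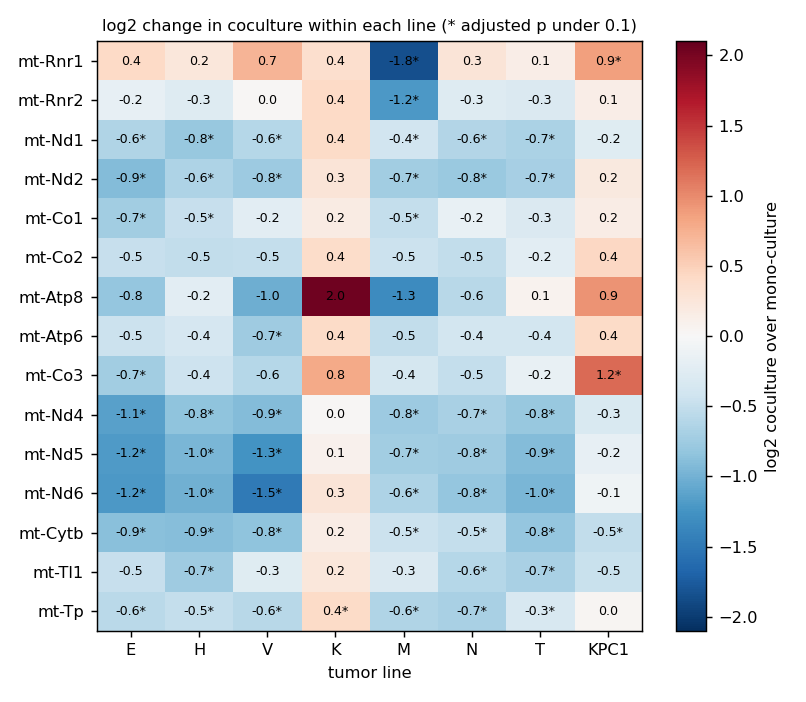
Log2 difference of coculture over mono-culture within each line (columns) for mitochondrially encoded genes (rows), from edgeR on 4 against 4 libraries, with an asterisk for an adjusted p under 0.1. Most complex I mRNAs and mt-Cytb are marked and blue in E, H, V, M, N and T, clone K has none marked blue, and in clone M the rRNA values (-1.84 and -1.20) rest on 1 mono-culture library.

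The metabolic groups were compared in mono-culture on 3 against 4 clones. None of the 26 genes tested was called by edgeR (0.00% of all genes), none had an unadjusted p under 0.05, and DESeq2 called none. The mRNAs not wholly within the copied stretch differed by between -0.19 (mt-Nd4) and 0.25 (mt-Nd6) on the log2 scale, with standard errors of 0.21 to 0.28. For the response of group 1 against that of group 2, edgeR called 0 of 28 genes (0.00637% of all genes), 1 had an unadjusted p under 0.05, and DESeq2 called none. The log2 difference between the responses was -0.66 ± 0.29 for mt-Nd6 (edgeR adjusted p = 0.657) and -0.53 ± 0.24 for mt-Nd5 (adjusted p = 0.665).

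The members varied together over libraries. Once line and culture means were subtracted, Pearson's r was taken for the rRNAs and the 7 mRNAs not wholly within the copied stretch. For pairs of mRNAs it was between 0.507 and 0.931 (median 0.821, 21 pairs, 64 libraries). For an mRNA and an rRNA it was between 0.245 and 0.568 (median 0.403, 14 pairs). These are descriptions, since all values of a library share its depth and its scaling.

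Among nuclear genes for mitochondrial transcription, replication and RNA processing, more were called higher than lower. The list also held regulators that act in the nucleus, such as Nrf1 and Esrra. Of its 44 symbols, 36 were in the count table and all 36 were tested. Of these, 21 were higher in coculture and 1 lower (edgeR adjusted p under 0.1, against 27.2% and 27.4% of all genes), with a median log2 difference of 0.22. Polrmt, the mitochondrial RNA polymerase, went from a mean of 38.8 to 48.4 CPM over lines (0.32 ± 0.06, edgeR adjusted p = 0.00258) and was higher in 8 of 8 lines. Tfam, which packages mitochondrial DNA and is a factor in its transcription, went from 44.1 to 49.2 CPM (0.17 ± 0.07, edgeR adjusted p = 0.0652), higher in 7 of 8, and its call was lost without clone E, V, K or M or KPC1.

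The 4 largest differences among those called higher were in genes that act on the RNA itself. Fastkd1, an RNA-binding protein of mitochondria, went from 10.7 to 17.01 CPM (0.62 ± 0.12, edgeR adjusted p = 0.00364). Trnt1, which adds the end of tRNAs, went from 42.8 to 64.4 CPM (0.56 ± 0.12, edgeR adjusted p = 0.00541). Trmt10c, part of the enzyme that cuts the start of tRNAs from the precursor, went from 34.2 to 50.2 CPM (0.55 ± 0.11, edgeR adjusted p = 0.00438), and Pnpt1, an RNA-degrading enzyme, from 57.4 to 79.3 CPM (0.48 ± 0.10, edgeR adjusted p = 0.00601). The gene called lower was Tefm, the elongation factor of mitochondrial transcription, which went from 9.55 to 7.69 CPM (-0.34 ± 0.15, edgeR adjusted p = 0.0962), a call that was lost under most alternatives.

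**Figure D5:**
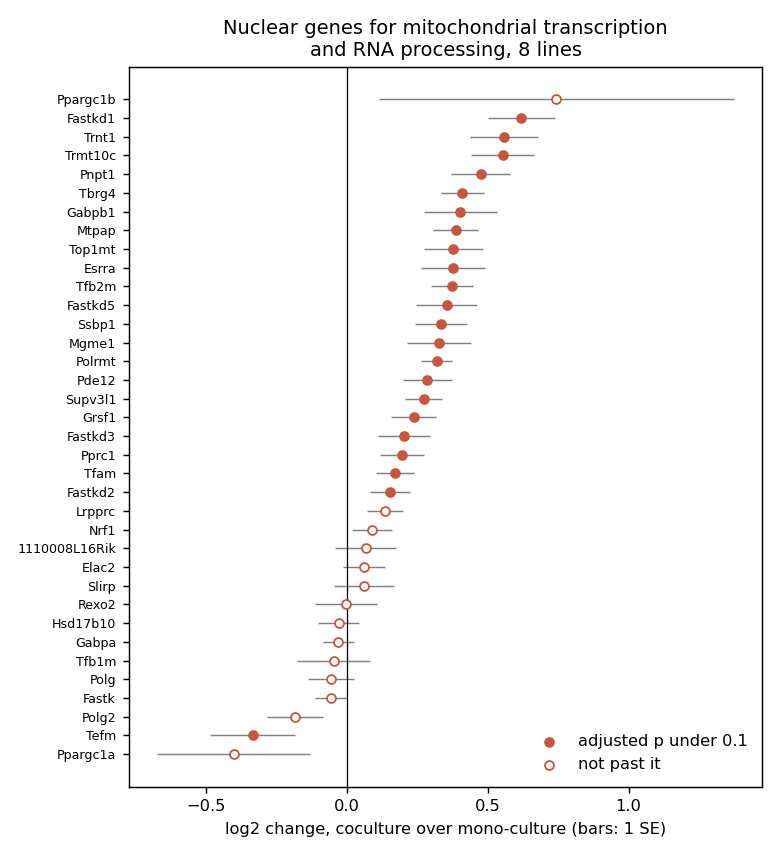
Log2 difference of coculture over mono-culture, with 1 SE, for the 36 tested nuclear genes of the list for mitochondrial transcription, replication and RNA processing, regulators included. Values are over 8 lines, and filled points have an edgeR adjusted p under 0.1. Most filled points lie to the right of 0, Polrmt at 0.32 and Fastkd1 at 0.62 among them, and Tefm at -0.34 is the filled point to the left.

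The nuclear subunits of complexes I, III, IV and V did not share a direction. Of 72 tested, 16 were higher and 14 lower (edgeR adjusted p under 0.1; 8 lower without clone H), both smaller shares than the 27.2% and 27.4% of all genes, with a median log2 difference of 0.01. The complex III subunit Uqcrq went from 83.1 to 141 CPM (0.74 ± 0.12, edgeR adjusted p = 0.00206) and the complex IV subunit Cox5a from 47.2 to 64.8 CPM (0.47 ± 0.07, edgeR adjusted p = 0.00132). The complex I subunits Ndufa3, from 27.2 to 20.3 CPM (-0.52 ± 0.17, edgeR adjusted p = 0.0347), and Ndufa5, from 26.6 to 19.97 CPM (-0.43 ± 0.14, edgeR adjusted p = 0.0298), were the largest decreases. Neither list had a gene called between the metabolic groups or for the difference in their response.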

How the data were processed

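Polyadenylated, strand-specific, paired-end libraries of 76 bases were sequenced. The authors deposited counts, whole numbers of reads on 39017 genes without normalization, and RPKM values, which the authors computed for 49585 genes. The submitters' processing notes name featureCounts, edgeR and mm10 without versions or roles, and the aligner and strand setting are not given in the sources used here. Positions were those of GENCODE M21 (GRCm38). It holds 37607 of the counted identifiers, with 99.8% of all counts. No column was left unused (0 columns). The alleles of the KPC mouse are not reported here.

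Counts were tested in edgeR 4.0.16 (R 4.3.3) by the quasi-likelihood test after TMM and filterByExpr, with Benjamini-Hochberg adjustment over all genes tested and a threshold of 0.1. Over lines, the 4 libraries of a line and culture were summed and the line was a covariate. Within a line, single libraries of all 16 groups were fitted together. Means and ranges are CPM of library totals. RPKM was tested with limma 3.58.1 on log2(RPKM + 1), where fold changes of low genes are understated. Shares were tested in Python 3.11.15 by exact permutation, two-sided. Tests across genes were tested on simulated data. Alternatives were DESeq2 1.42.0, RLE size factors, library totals, TMM without the mt- genes, no filter, a threshold of 0.05, RPKM, libraries as replicates with and without a replicate block, sheet A libraries alone and leaving out each line and replicate number. The 2 sample sheets, A with 43 libraries and B with 21, were inferred from sample numbers in the labels, which do not name them. Added after the data were seen were the share of each mRNA, the ratios from RPKM, the difference among lines, and the values without K mono-culture library 1, M mono-culture library 3 or KPC1 mono-culture library 4.

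The mRNAs and rRNAs were named one by one, tRNAs if among the 3 highest or called over lines, Polrmt and Tfam always, up to 4 list genes or 2 nuclear subunits in each direction by largest called difference, and up to 3 nuclear copies by CPM. mt-Tm and the tRNAs called within clone K and KPC1, and the copies whose sequence or RPKM is shown, were chosen after their values were seen. The members, the lists and the tests were chosen with earlier results of these data known. Depth bounds cover counting error only.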

Additional observations from a re-analysis of the deposited data

Results flagged for a closer look

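In 6 of 64 sets of 4 libraries tested (4 measures in 16 groups), 1 library lay apart from the other 3 by Dixon's test, which chance gives in about 1 of 20 sets. Mono-culture library 2 of clone E had a share of 6.00% of counts on mitochondrially encoded genes, against 3.90% to 4.11% in the other 3. Mono-culture library 3 of clone M had 11.35% of these counts on the rRNAs, against 2.08% to 2.44%, and mono-culture library 1 of clone H had 3.153%, against 3.75% to 3.84%. The log2 ratio of mt-Nd6 to the heavy-strand mRNAs was -6.045 in mono-culture library 3 of clone T, against -5.68 to -5.61, and -6.597 in its coculture library 1, against -6.05 to -6.03. Both libraries were on sheet B, as were mono-culture library 1 and coculture library 4 of clone T, which did not lie apart. In mono-culture library 1 of clone K, mt-Co1 took 38.1% of the mRNA counts, against 43.98% to 44.96%.

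The response to coculture differed among the 8 lines for 15 of the 23 genes tested (edgeR, adjusted p under 0.1), against 71.3% of all genes, which is the larger share.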

How the results depend on the processing

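The lower share in coculture over lines held under every alternative tried. As a percent of counts it lay between -0.824 points without clone E and -1.19 without clone K, as a share of summed RPKM it was -2.13 points, and it was -1.12 in sheet A libraries alone (exact permutation test, p = 0.0313, 6 of 7 lines with a mean in both cultures). Replicate numbers were shared between groups, and the labels do not say what they stand for. Of 32 pairs of mono-culture and coculture libraries with 1 number, 22 had deviations correlated above 0.1 (median 0.273, lowest -0.113), among them all 4 pairs in each of clones V, M and N, against 22 of 96 pairs with unlike numbers (median -0.0915). Since 10 pairs were not above 0.1, the numbers were not taken as pairs, although these values hint at pairing in some lines. With the replicate block, single libraries gave 0 members higher over lines, 3 called between groups, 4 for the difference in response, 3 list genes lower, and 28 nuclear subunits higher and 22 lower, and without the block 0, 3, 4, 3, 27 and 22. These fits count single libraries as replicates, although the line is the replicate, so their p-values take in the spread between libraries of a line. The share of all genes called in them is not given here, and these counts are not read as results on the members. Differences within pairs of 1 number called 0 lines lower in share, as did sheet A alone and leaving out each replicate number (0 to 0), where the smallest p is not under the threshold.

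Genes lower over lines numbered between 8 and 12 over these settings. The count of members higher over lines, 1, became 0 with DESeq2, 2 without M mono-culture library 3, 2 without line M and 0 to 2 without a replicate number. The calls higher within lines, 8 in all, became 5 without K mono-culture library 1, 5 with no filter, 4 at 0.05, 3 in sheet A and 1 to 11 without a replicate number. The difference among lines was called for 9 members without line K. The 1 list gene lower, Tefm, became 0 at 0.05, with library totals, with TMM without the mt- genes, with limma at either pseudocount, with no filter, without M mono-culture library 3, and without line E, H, N, T or V, 2 in sheet A, and 0 to 1 without a replicate number. Nuclear subunits lower became 9 at 0.05, 8 without line H, and 9 without line T or V.

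The share of group 1 less group 2 turned to 0.191 points without clone H and 0.321 without clone M. The KPC1 share ranged from -0.511 to 0.0457 without a replicate number and was 0.0991 without its mono-culture library 4. The rise in rRNA percent was 1.09 without line M, 1.01 without its mono-culture library 3, and 0.534 to 1.11 without a replicate number, and from RPKM it was 0.761 with all libraries, 1.13 and 1.04 in those 2 settings, and 0.562 to 1.14. The tRNA percent passed with 0.0206 without line N and 0.0153 without M mono-culture library 3, with a range of 0.0120 to 0.0171. Of mRNAs higher in share, 2, the count was 1 without E, H, K, KPC1, M or T and 1 to 4 without a replicate number. The mt-Nd6 ratio from RPKM missed the threshold without E (0.316), H (0.279), V (0.361), T (0.370) or KPC1 (0.352), with 0.255 to 0.515 without a replicate number. From RPKM, mt-Nd6 was at 0.0282 and 0.0291 and mt-Tp at 0.419 and 0.546 on the log2 scale with pseudocounts of 1 and 0.1, against negative values from counts. The log2 value of mt-Nd3, coculture over lines, ranged from -0.291 to 0.00407 without a replicate number. mt-Co1 lost its call in 7 alternatives, mt-Te in 8 and mt-Nd4l in 10. The cause of these changes was not tested.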
